A study of Mus musculus with 550 samples.

Results

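Inguinal lymph nodes of mice that had been given only the dosing vehicle were compared with nodes of undosed mice at 12 h. The members were the 12 inguinal node arrays whose titles read VEH or NAIVE at 12 h, of 550 arrays in all. They comprised 4 vehicle arrays and 8 naive arrays. All mice were of strain C57Bl/6. Vehicle mice had received 0.8% hydroxypropyl methylcellulose, the cellulose thickener in which the study's fumarates, dimethyl fumarate (DMF) and salts of monoethyl fumarate (MEF), were given as a single dose. Naive mice carried no dose, and neither group received a fumarate. The titles and protocols gave no sex or age, no route of dosing and no statement that nodes were pooled. Each array measured biotin-labelled total RNA of whole nodes, and the values were log2 probe set levels. Each gene was represented by 1 probe set, which gave 17097 genes, and each difference is vehicle minus naive on the log2 scale. The design counts mice per dose group, but no label ties an array to a mouse. The p-values therefore measure the spread between arrays, in the main fit over all 73 inguinal node arrays.

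The inguinal node drains the skin and fat of the flank and is made up mainly of T and B lymphocytes, with macrophages, dendritic cells and stroma. Lymphocytes and macrophages answer interferons by inducing antiviral genes of the Oas and Ifit families and, for interferon gamma, large GTPases and the chemokines Cxcl9 and Cxcl10. Heat shock chaperones fold other proteins and are induced when unfolded protein accumulates. The tissue label was checked against lymphocyte markers. The mean level of 10 T cell genes was 9.37 to 9.50 in the vehicle nodes and 9.34 to 9.51 in the naive nodes, and that of 12 B cell genes was 9.70 to 10.0 in the vehicle nodes and 9.84 to 10.1 in the naive nodes. Genes of liver, pancreas and gut stood at 2.45 to 2.48 in vehicle nodes and 2.46 to 2.63 in naive nodes, close to the lowest level of these arrays, 2.18. In whole nodes, fewer cells of a type and less RNA per cell cannot be told apart.

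Vehicle array 1 stood apart from the others. Its median level over all genes was 5.75, the lowest of the 12, against 5.90 to 5.97 in the other vehicle arrays and 5.95 to 6.08 in the naive arrays. When arrays were weighted by how well they fitted the model, its weight was 0.166, the lowest of the 12. The titles also carried a running number whose meaning the labels do not give. Places were counted in runs of 12, a length set here that no label gives, so place is not a known batch or processing position. The vehicle arrays then stood at places 1, 6, 7 and 8 and the naive arrays at places 5 to 12. Only places 5 to 8 held both groups. Results are therefore given with and without vehicle array 1, and within places 5 to 8 (vehicle 6, 7 and 8 against naive 41 to 44).

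A large set of genes differed between vehicle and naive nodes, and the number depended on vehicle array 1. With limma and a Benjamini-Hochberg adjusted p under 0.05, 2485 genes were called, 14.5% of those tested. Of these, 1049 (6.14%) were higher and 1436 (8.40%) were lower in vehicle nodes. Without vehicle array 1 the count was 699, and without vehicle arrays 6, 7 or 8 in turn it was 2543, 2150 and 2907. Leaving out each naive array gave 2035 to 2655. The fit drew its estimate of the spread from all 73 inguinal node arrays of 11 groups. From the 36 arrays at 12 h it called 864 genes, and from the 12 arrays alone 303. Within places 5 to 8 it called 219 genes, and with place as a covariate 1713. The split into higher and lower depended on the scaling: 42.2% of the calls were higher on the deposited values, 52.7% after a further quantile normalization and 74.9% with every array centred on its median. Called in the same direction in each of the 4 leave-outs of a vehicle array were 443 genes (2.59%), 189 higher (1.11%) and 254 lower (1.49%).

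**Figure D1:**
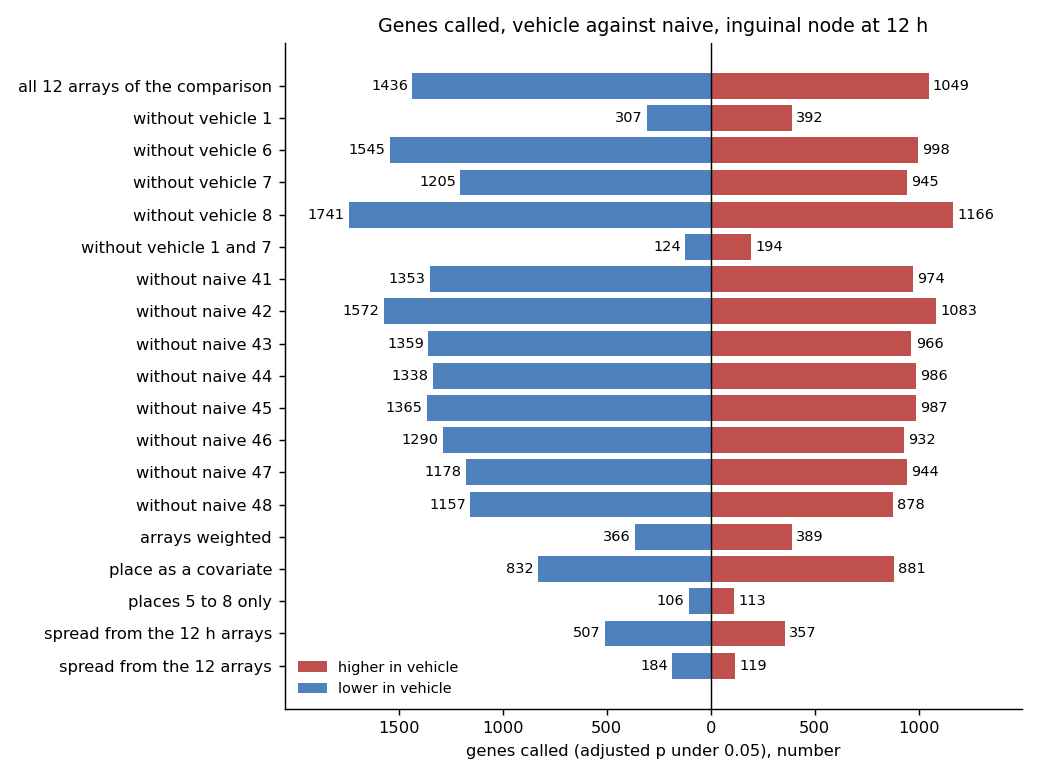
Genes called higher (right, red) and lower (left, blue) in vehicle than in naive nodes, as numbers of genes at an adjusted p under 0.05, for the full comparison and under each change of arrays or of the estimate of the spread. The count falls to 392 higher and 307 lower without vehicle array 1, and to 119 higher and 184 lower when the spread comes from the 12 arrays alone.

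Of the cytosolic chaperones, 4 were higher in every vehicle node than in any naive node, a separation that 1.49% of all genes showed. Of 12 heat shock genes measured, 6 were called higher, beside 6.14% of all genes, none was called lower and 6 were not called. Their median difference was 0.20, beside -0.0057 over all genes tested. Hsph1 (Hsp110, a nucleotide exchange factor for Hsp70) had levels of 12.19, 12.40, 12.28 and 12.22 in vehicle nodes, against a lowest, median and highest of 11.39, 11.77 and 11.91 in naive nodes. The groups did not overlap, and the difference was 0.56 ± 0.07 (SE), a fold of 1.47 (limma, adjusted p = 7.92e-07). Dnajb1 (Hsp40), which delivers clients to Hsp70, stood at 10.52, 10.51, 10.52 and 10.51 in vehicle nodes, against 9.58, 9.89 and 10.23 in naive nodes. The 4 vehicle nodes were almost level, all of them above the naive nodes, by 0.61 ± 0.10 (adjusted p = 4.04e-05).

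Dnaja1, another Hsp40, was at 10.77, 10.92, 10.69 and 10.84 in vehicle nodes, against 10.18, 10.32 and 10.47 in naive nodes (0.48, adjusted p = 5.46e-06). Hsp90aa1, the inducible cytosolic Hsp90, was at 10.29, 9.57, 9.44 and 9.49 in vehicle nodes, against 8.30, 9.04 and 9.29 in naive nodes (0.73, adjusted p = 6.02e-04). Neither gene's groups overlapped, although vehicle array 1 held the highest Hsp90aa1 level by a wide margin. Chordc1, an Hsp90 cochaperone, was higher by 0.23 (adjusted p = 0.00578) and Hspe1, the mitochondrial Hsp10, by 0.12 (adjusted p = 0.0273), both with overlapping groups. The constitutive Hspa8 averaged 13.1 ± 0.065 in vehicle nodes and 13.2 ± 0.047 in naive nodes (SD, n = 4 and 8), and the stress-inducible Hspa1b averaged 7.28 ± 0.210 and 6.97 ± 0.639 in the same order. Neither passed the test. Hspa8 was called higher, by 0.18, when all its probe sets were averaged, so its level depends on the probe set.

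The chaperone calls did not rest on vehicle array 1. Without it, 5 of the 12 were called higher, beside 2.29% of all genes, and within places 5 to 8 it was also 5, beside 0.661%. There Hsph1 differed by 0.48 (adjusted p = 4.89e-04), Dnajb1 by 0.48 (adjusted p = 0.00882), Dnaja1 by 0.56 (adjusted p = 0.00248), Hsp90aa1 by 0.35 (adjusted p = 0.0409) and Chordc1 by 0.28 (adjusted p = 0.00768). Hspe1 was the member lost without vehicle array 1 (adjusted p = 0.304). With the spread taken from the 12 arrays alone, Hsp90aa1 (adjusted p = 0.103) and Chordc1 (adjusted p = 0.0657) were also lost.

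**Figure D2:**
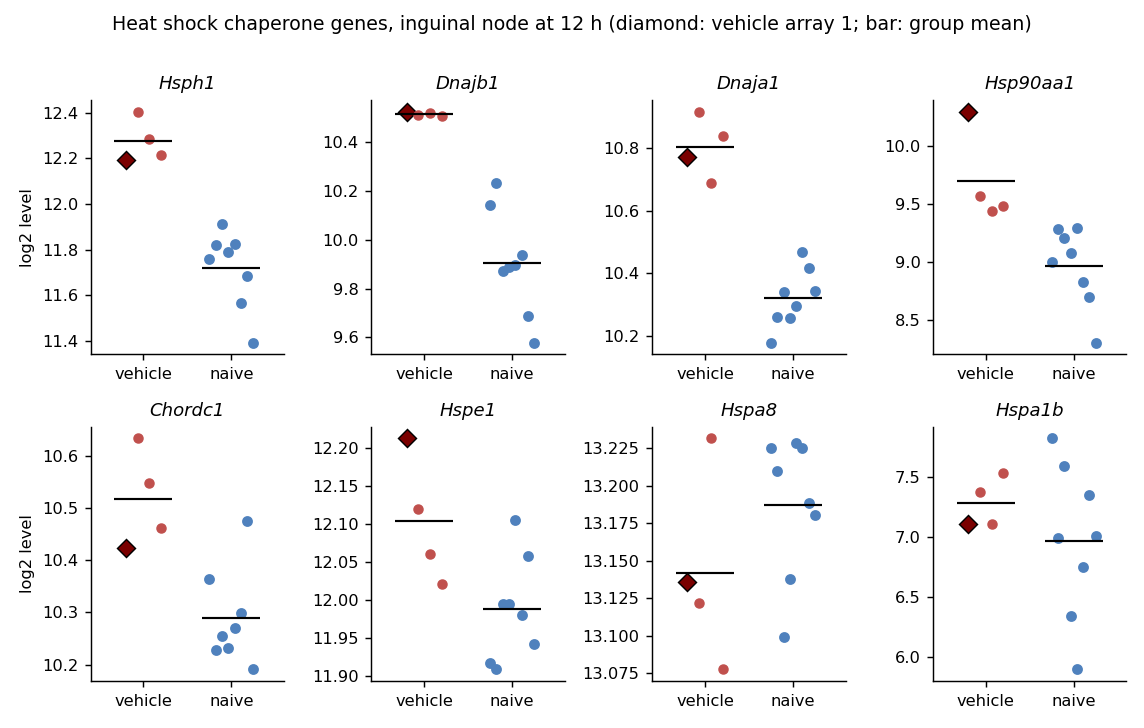
Log2 levels of 8 heat shock genes in the 4 vehicle nodes (red, left in each panel) and the 8 naive nodes (blue, right), with vehicle array 1 as a diamond and group means as bars. The vehicle nodes lie above all naive nodes for Hsph1, Dnajb1, Dnaja1 and Hsp90aa1, and the groups overlap for Chordc1, Hspe1, Hspa8 and Hspa1b.

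The promoter windows of Hsph1 and Chordc1 are shown because these members were higher and carry a 3-unit heat shock element. The windows run from 250 bases before to 50 bases after the gene's start, on the gene's strand, 5' to 3', as RefSeq gives them on GRCm38.p6. Capitals mark GAANNTTCNNGAA or its reverse complement TTCNNGAANNTTC, in which overlapping matches were merged. Hsph1 lies at chr5:149636287-149636586 on the minus strand, with 1 match that begins 36 bases after the start. Chordc1 lies at chr9:18292017-18292316 on the plus strand, with 3 overlapping matches, the leftmost beginning 4 bases before the start.
Hsph1: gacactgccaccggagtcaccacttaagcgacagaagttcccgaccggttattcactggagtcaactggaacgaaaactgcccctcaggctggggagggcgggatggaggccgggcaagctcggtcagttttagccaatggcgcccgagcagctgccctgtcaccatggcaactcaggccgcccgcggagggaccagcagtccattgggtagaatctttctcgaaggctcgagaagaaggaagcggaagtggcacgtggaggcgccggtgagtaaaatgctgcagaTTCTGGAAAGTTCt
Chordc1: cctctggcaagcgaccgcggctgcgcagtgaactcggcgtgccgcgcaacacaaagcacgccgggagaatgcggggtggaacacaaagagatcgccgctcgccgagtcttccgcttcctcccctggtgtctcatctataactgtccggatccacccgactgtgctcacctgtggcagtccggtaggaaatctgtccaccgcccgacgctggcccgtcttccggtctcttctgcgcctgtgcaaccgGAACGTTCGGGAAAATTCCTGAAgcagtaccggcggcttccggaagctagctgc
The element was found in 0.603% of 32851 mouse promoter windows of this length. Of the 6 chaperone genes called higher, 5 had a window, and Hsph1, Hspe1 and Chordc1 held the element while Dnajb1 and Dnaja1 did not. None of the 4 windows of members not called higher held it. These are matches of letters and were not tested as binding sites.

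The chaperone difference was present in other organs of the same study. Averaged over the 12 genes and set against each organ's naive mean, the vehicle arrays stood 0.21 to 0.31 higher in the inguinal node, with naive arrays between -0.14 and 0.19. All 8 vehicle arrays lay above all naive arrays in the mesenteric node (8 naive arrays) and in the kidney (6 naive). All 7 did so in spleen, which had only 3 naive arrays. It was 6 of 7 in whole blood (5 naive), 6 of 8 in brain (8 naive) and 6 of 8 in jejunum (7 naive). Fewer naive arrays are easier to exceed, so these counts are not equally strong. How often other gene sets separate in this way was not tested. Dnajb1 was called higher in mesenteric node (0.72), spleen (0.50), whole blood (0.66), kidney (0.41) and jejunum (0.36) as well, and not in brain (0.15, adjusted p = 0.201). The share of all genes called in either direction was 24.4% in mesenteric node, 18.3% in spleen, 0.269% in whole blood, 2.56% in brain and 5.44% in jejunum. In kidney it was the largest, with 7871 of 17097 genes called. Hspa1b differed by 1.12 in the mesenteric node (adjusted p = 2.68e-05) and by 1.73 in the spleen (adjusted p = 8.30e-06), but the test of its difference between the 2 kinds of node gave an adjusted p of 0.409. No heat shock gene was called in that test of the difference between inguinal and mesenteric node: for Hsph1 the adjusted p was 0.803 and for Dnajb1 0.906.

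Beyond the chaperones, the genes called without each vehicle array in turn included chemokines and GTPases. Predicted or unnamed genes and a few sex-linked genes were left out of the ranking. The 10 highest of the rest were Gbp2b, Iigp1, Ccl7, Ccl12, Pfdn2, Mgl2, Xrn1, Irgm2, Hsp90aa1 and Fgl2. Pfdn2, a subunit of the prefoldin chaperone, was at 9.45, 8.25, 8.63 and 8.11 in vehicle nodes, against 7.49, 7.65 and 8.09 in naive nodes (0.92, adjusted p = 1.43e-04). Xrn1, the cytoplasmic 5'-to-3' RNA exonuclease, was at 7.69, 7.29, 7.80 and 7.54 in vehicle nodes, against 6.04, 6.83 and 7.19 in naive nodes (0.85, adjusted p = 3.64e-04). For both genes every vehicle node was above every naive node, a pattern that 254 genes (1.49%) shared. Jun, an immediate early transcription factor, was higher by 0.54 (adjusted p = 2.56e-04) and Btg2, an antiproliferative gene of the same list, by 0.45 (adjusted p = 4.37e-04), also without overlap. The Jun difference was 0.33 without vehicle array 1 (adjusted p = 0.0282). Of the 19 immediate early genes measured, 4 were called higher and 1 lower, beside 6.14% and 8.40% of all genes, with a median of 0.07, and the archetypal member Fos was not among the calls.

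The 10 lowest genes in the same ranking were Epha4, Cnnm3, Rfesd, Zfp788, Mettl27, Pawr, Sfxn5, Rab26os, Cerox1 and Cacna1d. Rfesd, which encodes a Rieske iron-sulfur domain protein, was at 7.04, 7.03, 6.90 and 6.57 in vehicle nodes, against 7.48, 7.81 and 8.01 in naive nodes (-0.89, adjusted p = 1.28e-05). Cnnm3, of a family linked to magnesium transport, was at 8.07, 8.59, 8.09 and 8.54 in vehicle nodes, against 8.77, 9.27 and 9.62 in naive nodes (-0.90, adjusted p = 1.48e-04). Sfxn5, a mitochondrial sideroflexin, was at 6.48, 6.66, 6.74 and 6.65 in vehicle nodes, against 7.11, 7.40 and 7.62 in naive nodes (-0.75, adjusted p = 4.71e-05). None of the 3 overlapped between groups, and 420 genes (2.46%) had every vehicle node below every naive node. Epha4, an ephrin receptor, fell by 0.90, Pawr, a pro-apoptotic regulator, fell by 0.80, and Cacna1d, a calcium channel subunit, fell by 0.69. Within places 5 to 8, Rfesd (adjusted p = 0.00641) and Mettl27 (adjusted p = 0.018) were called and the other 8 were not. There 0.620% of all genes were called lower. That share is no yardstick for these 10 genes, which were chosen by calls in fits that held the same vehicle arrays. In the mesenteric node Cnnm3 fell by 1.05 (adjusted p = 3.20e-10) and Rfesd fell by 0.67 (adjusted p = 1.06e-07).

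Genes induced by interferon gamma were higher in vehicle nodes, most of all in vehicle array 1. Of 17 genes of the interferon gamma and GTPase list, 13 were called higher, beside 6.14% of all genes, and none lower, with a median of 0.53. Without vehicle array 1 the calls were 2, Irgm2 and Iigp1, beside 2.29% of all genes, and the median 0.29. Within places 5 to 8 no member was called, and with place as a covariate 13 were, beside 5.15% of all genes. Iigp1, an immunity-related GTPase, was at 10.80, 8.85, 9.07 and 9.43 in vehicle nodes, against 8.10, 8.32 and 8.83 in naive nodes (1.14, adjusted p = 7.44e-05). Irf1, a transcription factor of this pathway, was at 11.67, 10.64, 10.70 and 10.73 in vehicle nodes, against 10.26, 10.46 and 10.55 in naive nodes (0.51, adjusted p = 0.00112). Every vehicle node was above every naive node for both, as for 1.49% of all genes, and narrowly so for the vehicle nodes other than number 1. Without that array the differences were 0.72 for Iigp1 (adjusted p = 0.0113) and 0.27 for Irf1 (adjusted p = 0.108). Irgm2, a related GTPase, differed by 0.83 (adjusted p = 2.78e-04), and by 0.50 without vehicle array 1 (adjusted p = 0.0323).

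Gbp2b, a guanylate-binding protein outside that list, had the largest difference among the named genes called in each leave-out. Its levels were 8.22, 7.63, 6.95 and 8.03 in vehicle nodes, against 4.54, 5.58 and 6.37 in naive nodes. The groups did not overlap, as for 1.49% of all genes in this direction, and vehicle array 1 was level with vehicle 8. The difference was 2.13 ± 0.44 (SE), a fold of 4.36 (adjusted p = 7.40e-04), and 1.95 without vehicle array 1 (adjusted p = 0.0114). Within places 5 to 8 it was 1.94 but did not pass the test (adjusted p = 0.0896). Guanylate-binding genes have close copies, as do the Oas, Ccl and mast cell protease genes, so a probe set may read more than 1 of them. Its relative Gbp2 was at 10.38, 8.85, 8.79 and 8.91 in vehicle nodes, against 8.15, 8.44 and 8.89 in naive nodes (0.77, adjusted p = 8.18e-04). For Gbp2, vehicle arrays 6 and 7 lay within the naive range and vehicle array 8 just above it, and the adjusted p without number 1 was 0.0947.

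The chemokine and antiviral genes followed vehicle array 1 more closely. Cxcl10, which attracts activated T cells, was at 11.58, 8.63, 8.06 and 7.99 in vehicle nodes, against 7.43, 7.78 and 8.03 in naive nodes (1.34, adjusted p = 0.00757; 0.50 and adjusted p = 0.435 without array 1). Cxcl9, its relative, was at 11.41, 9.26, 8.87 and 8.37 in vehicle nodes, against 8.27, 8.47 and 8.81 in naive nodes (0.95, adjusted p = 0.00588; 0.30 and adjusted p = 0.452 without array 1). In both, 1 vehicle node stood far above all others and the lowest vehicle node lay inside the naive range.

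**Figure D3:**
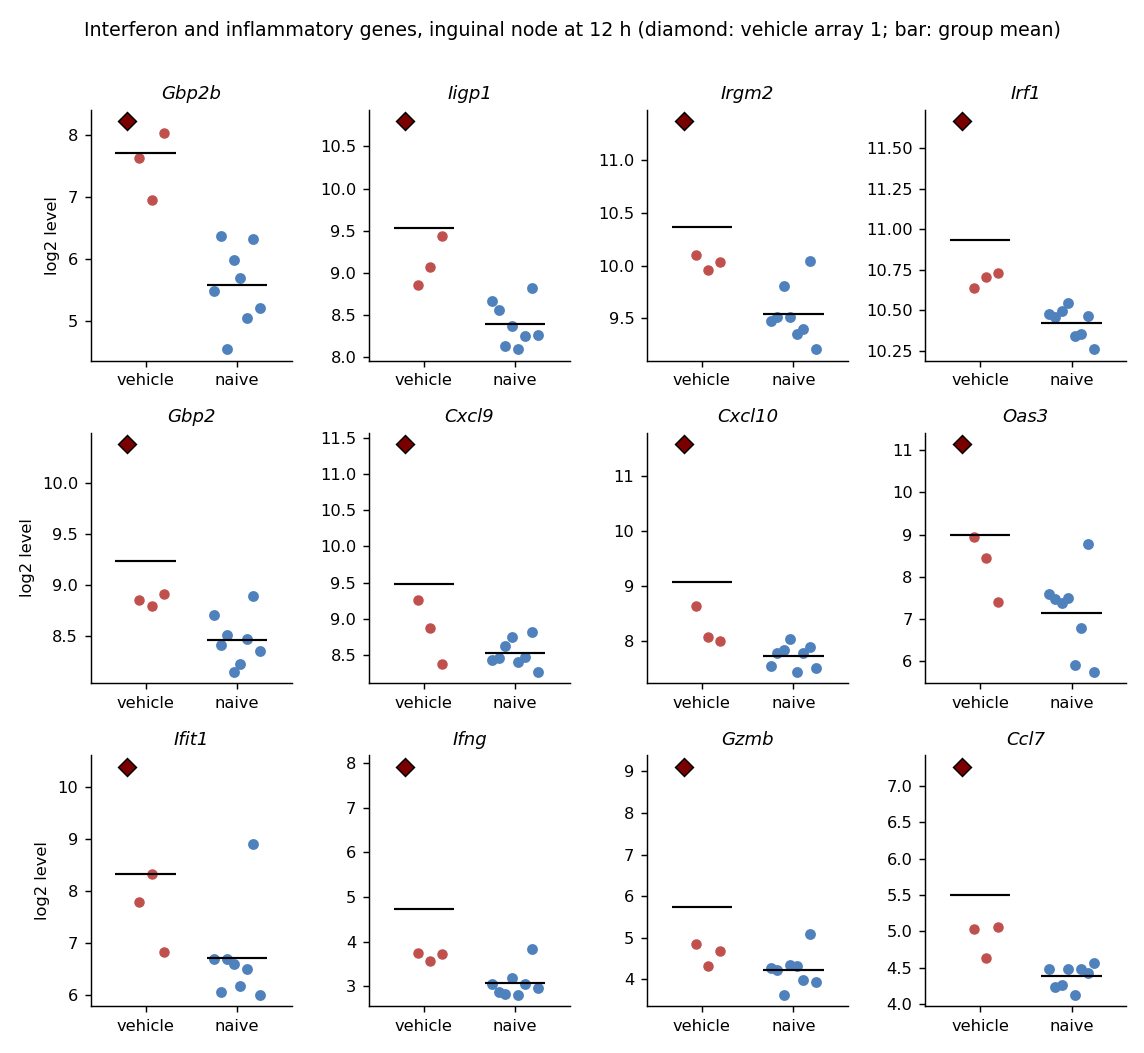
Log2 levels of 12 interferon-related and inflammatory genes in the 4 vehicle nodes (red, left in each panel) and the 8 naive nodes (blue, right), with vehicle array 1 as a diamond and group means as bars. Vehicle array 1 is the highest point in every panel, and for Gbp2b, Iigp1, Irf1 and Ccl7 the other vehicle nodes also lie above all naive nodes.

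Promoter windows are printed for Gbp2b and its relative Gbp2, and for Cxcl10 and Oas3, the called members with the largest difference in each interferon list, because all 4 hold an interferon-stimulated response element core. Capitals mark GAAANNGAAA or its reverse complement TTTCNNTTTC. Gbp2b lies at chr3:142594597-142594896 and Gbp2 at chr3:142620413-142620712, both on the plus strand, with matches 137 and 59 bases before the start. Cxcl10 lies at chr5:92348840-92349139 and Oas3 at chr5:120777610-120777909, both on the minus strand, with matches 213 and 75 bases before the start (GRCm38.p6, RefSeq).
Gbp2b: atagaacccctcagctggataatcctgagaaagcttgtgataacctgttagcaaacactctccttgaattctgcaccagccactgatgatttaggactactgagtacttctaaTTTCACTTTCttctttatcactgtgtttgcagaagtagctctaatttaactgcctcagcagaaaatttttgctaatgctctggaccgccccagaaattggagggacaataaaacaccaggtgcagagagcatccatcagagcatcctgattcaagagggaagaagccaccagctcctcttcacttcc
Gbp2: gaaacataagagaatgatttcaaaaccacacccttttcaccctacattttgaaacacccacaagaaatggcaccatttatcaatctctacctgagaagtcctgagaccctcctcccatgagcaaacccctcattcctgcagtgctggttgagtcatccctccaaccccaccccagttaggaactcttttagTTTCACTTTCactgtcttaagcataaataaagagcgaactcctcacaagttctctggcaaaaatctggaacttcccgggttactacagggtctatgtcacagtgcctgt
Cxcl10: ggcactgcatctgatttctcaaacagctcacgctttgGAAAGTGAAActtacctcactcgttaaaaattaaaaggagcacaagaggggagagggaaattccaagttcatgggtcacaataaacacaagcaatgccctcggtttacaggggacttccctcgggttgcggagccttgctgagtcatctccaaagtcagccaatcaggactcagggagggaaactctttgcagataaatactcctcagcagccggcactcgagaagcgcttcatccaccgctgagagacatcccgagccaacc
Oas3: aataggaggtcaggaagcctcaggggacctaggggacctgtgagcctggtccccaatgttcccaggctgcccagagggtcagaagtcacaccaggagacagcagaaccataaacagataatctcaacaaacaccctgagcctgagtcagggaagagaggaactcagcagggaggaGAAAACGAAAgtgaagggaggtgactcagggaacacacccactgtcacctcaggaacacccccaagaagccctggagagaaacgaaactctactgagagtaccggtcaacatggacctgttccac
This core was found in 3.44% of the 32851 windows. Of the 13 called members of the interferon gamma and GTPase list, 12 had a window and 9 of these held it. Of the 8 called members of the type I interferon list, 5 had a window and 3 held it, and of the 16 members not called higher, 10 had a window and 6 held it.

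Type I interferon response genes were called higher for 8 of 24 members, beside 6.14% of all genes, with a median of 0.98, and none was called lower. Without vehicle array 1 none was called, beside 2.29% of all genes called higher, and the median was 0.37. Oas3, a synthetase of the oligoadenylates that activate RNase L, was at 11.15, 8.94, 8.45 and 7.39 in vehicle nodes, against 5.74, 7.42 and 8.78 in naive nodes (1.84, adjusted p = 0.0122; 1.12 and adjusted p = 0.27 without array 1). Zbp1, a sensor of Z-form nucleic acid, was at 11.08, 8.77, 8.55 and 8.14 in vehicle nodes, against 7.68, 7.99 and 8.98 in naive nodes (1.00, adjusted p = 0.00934). The groups overlapped for both genes, and the highest naive level was that of naive array 47 each time. The other 6 calls were Cmpk2 (1.10), Ifit2 (1.00), Dhx58 (0.97), Oas1g (0.91), Stat2 (0.70) and Parp14 (0.61). Ifit1 (1.62, adjusted p = 0.0804), Oasl1 (1.24, adjusted p = 0.0562) and Oas2 (1.07, adjusted p = 0.0782) did not pass the test. Naive array 47 reached 8.91 for Ifit1, where the other naive arrays did not pass 6.70. Averaged over the 24 genes, naive array 47 stood 1.23 above the naive mean, vehicle array 1 stood 2.45 above it, and the other vehicle arrays -0.04 to 0.73.

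Vehicle array 1 also held cytokine, cytotoxic and inflammatory transcripts that were low elsewhere. Ifng, the gene of interferon gamma itself, was at 7.92, 3.73, 3.57 and 3.73 in vehicle nodes, against 2.81, 3.0 and 3.83 in naive nodes (1.67, adjusted p = 6.40e-04; 0.61 and adjusted p = 0.0759 without array 1). Gzmb, the granule protease granzyme B, was at 9.11, 4.86, 4.31 and 4.69 in vehicle nodes, against 3.64, 4.25 and 5.10 in naive nodes. Ptgs2, the inducible cyclooxygenase, was at 7.06, 3.53, 3.55 and 3.53 in vehicle nodes, against 2.82, 3.53 and 4.03 in naive nodes. In all 3, number 1 was far above the remaining vehicle nodes, which lay in the naive range. For Ifng only naive array 47 reached 3.83, and the other naive nodes did not pass 3.18, below every vehicle node. Ifng was added to the text after its values were seen. Ccl3 (6.92) and the natural killer receptor Klrk1 (8.27) were highest in that node as well.

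Of 10 natural killer and cytotoxic genes, Gzmb and Klrk1 were called higher and Klrd1 fell by 0.25 (adjusted p = 0.0107). Of 16 inflammatory genes, Ccl2, Ccl3, Ptgs2 and Icam1 were called higher. These shares stand beside 6.14% of all genes called higher, or 2.29% without vehicle array 1, where only Icam1, an adhesion molecule, was left of the 6 higher calls (0.26, adjusted p = 0.00816) and Klrd1 was no longer called (adjusted p = 0.0652). The 14 cell cycle genes had a median difference of 0.39 with none called, and their mean level was 7.97 in vehicle array 1, 6.82 to 7.14 in the other vehicle nodes and 6.51 to 7.69 in the naive nodes. The monocyte chemoattractant Ccl7 was the exception, at 7.26, 5.03, 4.63 and 5.05 in vehicle nodes, against 4.13, 4.46 and 4.57 in naive nodes (1.11, adjusted p = 3.01e-04). It remained called without array 1 (0.52, adjusted p = 0.038), as did Ccl12 (0.70, adjusted p = 0.0496).

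In no other organ did vehicle number 1 reach the interferon level that it had in the inguinal node. For the 24 type I genes, number 1 stood -0.32 from the naive mean in mesenteric node, -0.18 in spleen, 0.42 in whole blood, 0.02 in kidney, 0.06 in brain and -0.28 in jejunum. The whole blood value was the highest there, with other vehicle arrays up to 0.36 and naive arrays up to 0.32. For the 17 interferon gamma genes the highest value of number 1 outside the inguinal node was 0.24, in spleen, against 1.36 in the inguinal node. The other vehicle arrays of the spleen reached 0.08 and its naive arrays 0.12. Ifng in the mesenteric node of number 1 was 2.66, where the 8 vehicle mesenteric nodes ranged from 2.66 to 3.05 and the naive ones from 2.71 to 2.85. These levels were near the lowest mesenteric level, 2.19, so the order of the arrays there carries little information. Whether equal numbers mark 1 mouse was not stated in the labels.

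**Figure D4:**
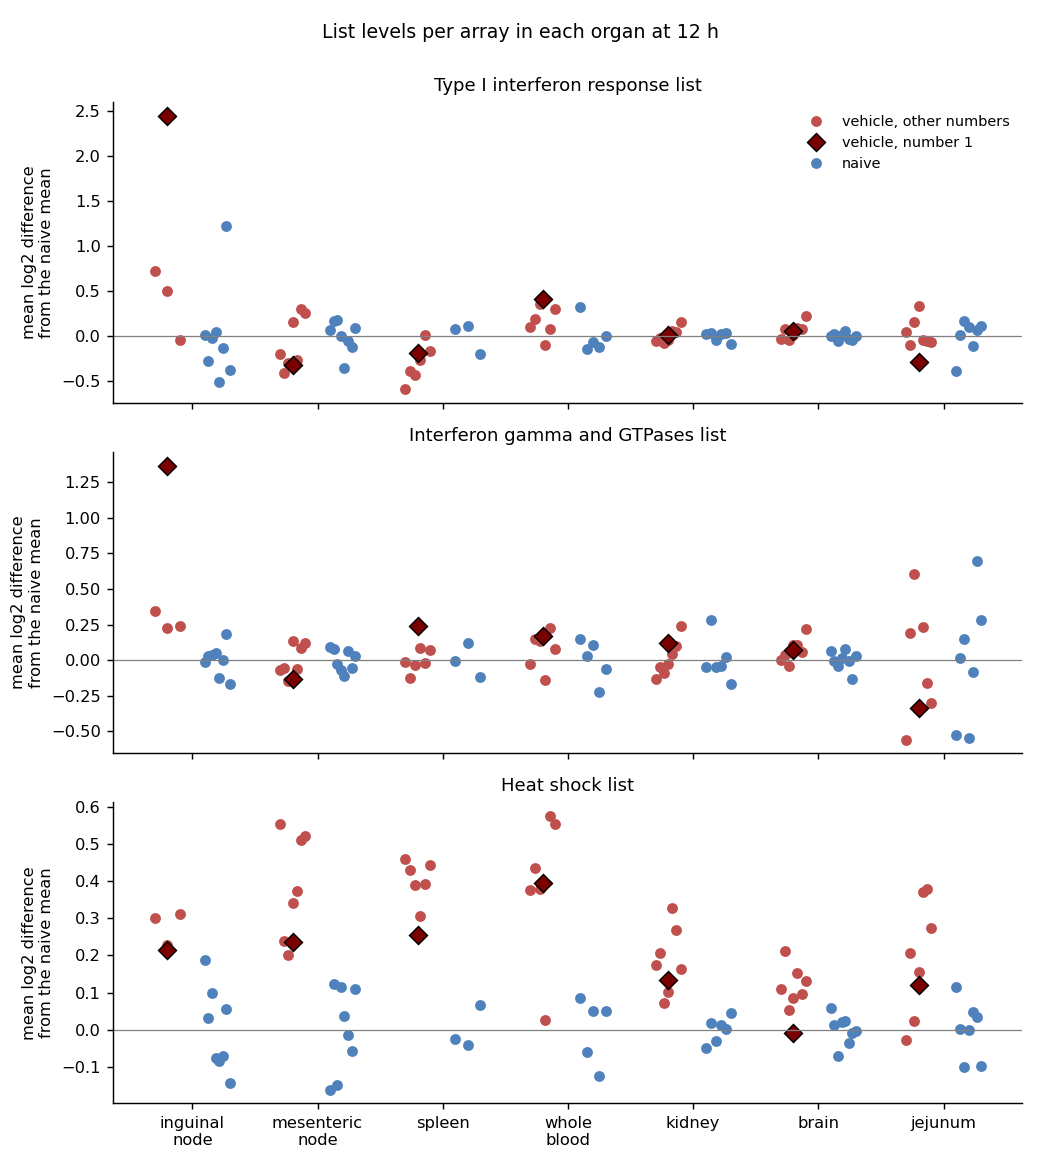
Mean log2 difference from the organ's naive mean over the type I interferon (top), interferon gamma and GTPase (middle) and heat shock (bottom) lists, per array, in 7 organs at 12 h, with vehicle left (red, number 1 as a diamond) and naive right (blue). Number 1 stands apart in the inguinal node for both interferon lists, at 2.45 and 1.36, while the heat shock list lies higher in vehicle arrays of most organs.

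Mast cell proteases were lower in 2 of the 4 vehicle nodes. Of 14 mast cell genes, 4 were called lower, beside 8.40% of all genes, none was called higher, and the median difference was -0.04. Cpa3, the mast cell carboxypeptidase, was at 4.28, 6.32, 2.87 and 6.15 in vehicle nodes, against 5.74, 6.45 and 7.13 in naive nodes (-1.54, adjusted p = 0.00327). Cma1, a chymase, was at 5.34, 6.41, 3.0 and 6.40 in vehicle nodes, against 6.10, 6.56 and 7.40 in naive nodes (-1.44, adjusted p = 0.00392). Vehicle arrays 1 and 7 were below all naive nodes for both, and vehicle arrays 6 and 8 were inside the naive range. Mcpt4 and the tryptase Tpsb2 were at 2.73 and 3.04 in vehicle array 7, and differed by -1.31 and -1.16 between the groups.

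Vehicle array 7 decided these calls. Without it the differences were -0.86, -0.68, -0.50 and -0.40 for Cpa3, Cma1, Mcpt4 and Tpsb2, with adjusted p-values of 0.10, 0.158, 0.37 and 0.328. Without vehicle array 1 all 4 remained called, beside 1.80% of all genes called lower. The receptor genes of mast cells did not pass the test: Kit differed by 0.09 (adjusted p = 0.653) and Fcer1a, near the lowest level, by -0.25 (adjusted p = 0.618). In the mesenteric node the 4 proteases lay between 2.19 and 3.03 in all vehicle and naive arrays, close to the lowest level, and the difference between the nodes did not pass the test (adjusted p = 0.095 for Cpa3).

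Macrophage genes gave a mixed picture. Of 14 markers, C1qa, a complement component made by macrophages, and Fcgr1, a high-affinity immunoglobulin receptor, were called higher (0.52 and 0.81), beside 6.14% of all genes, with a list median of 0.19. C1qa was also called without vehicle array 1, where the Fcgr1 difference of 0.49 was not (adjusted p = 0.355). Cd5l, a scavenger receptor family protein secreted by macrophages, was at 6.46, 8.67, 7.79 and 7.86 in vehicle nodes, against 6.03, 6.56 and 7.05 in naive nodes. Here vehicle array 1 was inside the naive range and the other 3 were above it. The difference was 1.11 (adjusted p = 0.0155) and 1.52 without array 1 (adjusted p = 0.00534). Mgl2, a galactose-binding lectin of macrophages and dendritic cells, behaved alike, at 4.80, 5.33, 5.59 and 5.99 in vehicle nodes, against 3.98, 4.61 and 4.95 in naive nodes. Cd209f, a lectin gene, fell by 0.95 (adjusted p = 0.0181), with a difference of -0.65 without array 1 (adjusted p = 0.26).

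**Figure D5:**
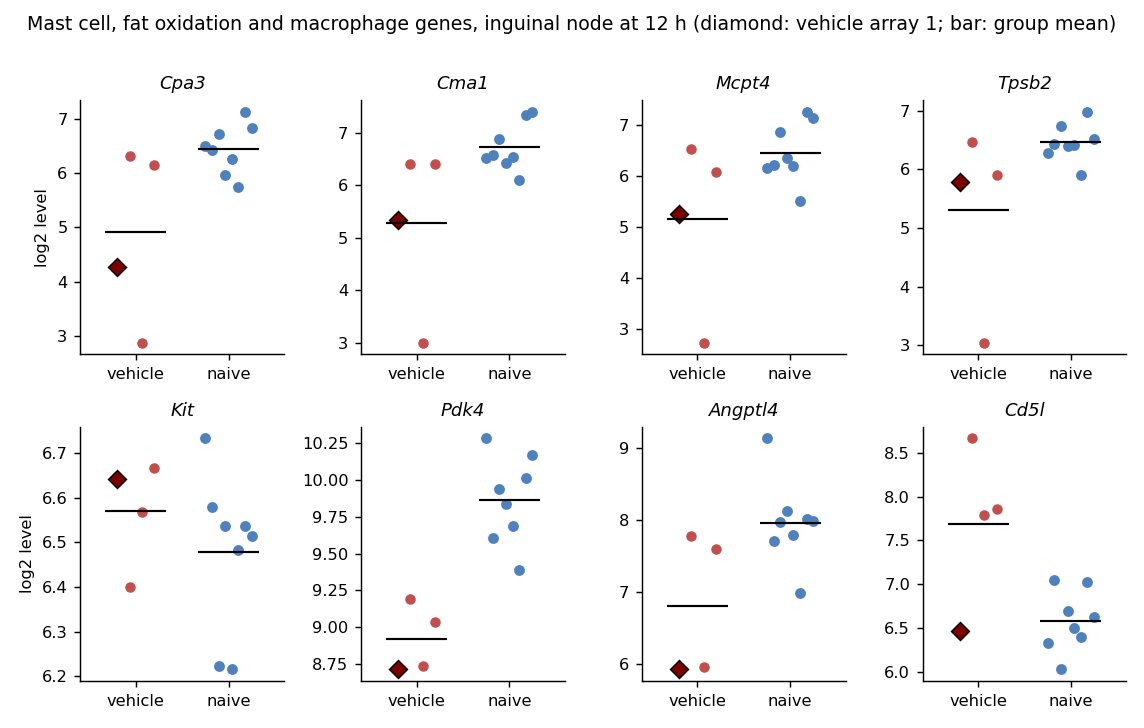
Log2 levels of 5 mast cell genes, of Pdk4 and Angptl4, which act in fat use, and of the macrophage gene Cd5l in the 4 vehicle nodes (red, left in each panel) and the 8 naive nodes (blue, right), with vehicle array 1 as a diamond and group means as bars. The lowest protease level in each panel, between 2.73 and 3.04, is that of vehicle array 7, and every vehicle node lies below every naive node for Pdk4.

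Pdk4 and Angptl4, which act in the use of fat, were lower in vehicle nodes. Pdk4, the kinase that shuts pyruvate dehydrogenase during fasting, was at 8.71, 9.19, 8.73 and 9.04 in vehicle nodes, against 9.39, 9.89 and 10.28 in naive nodes (-0.95, adjusted p = 0.00912). Angptl4, a fasting-induced inhibitor of lipoprotein lipase, was at 5.92, 7.77, 5.95 and 7.59 in vehicle nodes, against 6.98, 7.97 and 9.14 in naive nodes (-1.15, adjusted p = 0.0261). Pdk4 did not overlap between the groups, a separation that 2.46% of all genes showed in the lower direction, and Angptl4 did overlap. Pdk4 and Angptl4 were the 2 calls among 11 fasting and PPAR-alpha genes, beside 8.40% of all genes called lower. The list median was -0.02, and both genes missed the threshold without vehicle array 1 (adjusted p = 0.0641 and 0.249). Fabp1, a fatty acid binding protein, fell by 1.09 (adjusted p = 0.027), with a difference of -0.59 without vehicle array 1 (adjusted p = 0.438). Adipoq, the adiponectin gene of fat cells, was at 7.33, 6.76, 6.75 and 8.22 in vehicle nodes, against 7.30, 7.98 and 11.29 in naive nodes, and did not pass the test (-1.20, adjusted p = 0.479). Of 15 fat cell genes, 1 was called lower and 1 higher, beside 8.40% and 6.14% of all genes. Scd1 was the lower one (-0.26), with an adjusted p of 0.115 without vehicle array 1. Ucp1, the brown fat uncoupler, was higher (0.41), at levels of 2.48 to 3.29 in vehicle nodes and 2.43 to 2.68 in naive nodes. The 15 genes averaged 6.22 to 6.73 in vehicle nodes and 6.35 to 8.33 in naive nodes, the highest being naive array 41. The part of adhering fat in these differences was not tested.

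Of the lymphocyte and vessel genes, 2 of 12 in the B cell list, 2 of 10 in the T cell list and 2 of 11 in the blood endothelial list were called lower, beside 8.40% of all genes, and none was called higher. Fcer2a, the CD23 receptor of follicular B cells, was at 8.67, 9.71, 9.19 and 9.54 in vehicle nodes, against 9.74, 9.85 and 9.89 in naive nodes (-0.55, adjusted p = 2.56e-04). The naive nodes were tightly grouped and every vehicle node was below them, as for 2.46% of all genes. The Fcer2a difference was -0.35 without vehicle array 1 (adjusted p = 0.027), and within places 5 to 8 no B cell gene was called. Cd22, an inhibitory receptor of B cells, fell by 0.24 (adjusted p = 6.72e-04), and the other 10 of 12 B cell genes were not called. Among 10 T cell genes, Cd5 fell by 0.34 and Cd3e fell by 0.17, and neither was called without vehicle array 1. Chst4, a sulfotransferase of high endothelial venules, fell by 0.53 (adjusted p = 0.0138), with vehicle array 1 lowest at 5.54. Without that array its difference was -0.31 and was not called (adjusted p = 0.307). Of 16 epithelial genes only the casein Csn2 was called and fell by 0.22, a call lost without vehicle array 1 (adjusted p = 0.0757), and Krt19 ranged from 3.89 to 6.49 in vehicle nodes and from 5.01 to 8.61 in naive nodes.

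RNA-binding genes included some whose difference was smaller with place as a covariate. Rbm3 and Cirbp, a pair of cold-inducible RNA-binding proteins, differed in opposite directions: Rbm3 was at 9.17, 9.06, 8.96 and 9.03 in vehicle nodes, against 8.05, 8.48 and 8.84 in naive nodes (0.58, adjusted p = 0.00947), and Cirbp differed by -0.43 (adjusted p = 8.15e-04). Rbm3 did not overlap between the groups, a separation that 1.49% of all genes showed in the higher direction. Rbm3, Cirbp and Clk1 were the 3 calls among 16 splicing regulators, 2 higher and 1 lower, beside 6.14% and 8.40% of all genes. The list median was -0.01, and Rbm3 was not called without vehicle array 1 (0.54, adjusted p = 0.0639). Rbm12b1 was at 8.28, 7.12, 6.92 and 7.13 in vehicle nodes, against 4.90, 6.26 and 6.82 in naive nodes (1.30, adjusted p = 0.0184), and its difference was 0.72 with place as a covariate (adjusted p = 0.00575) and 0.99 without vehicle array 1 (adjusted p = 0.20). Tra2b, a splicing regulator, was at 8.24, 6.99, 7.59 and 7.27 in vehicle nodes, against 5.19, 6.57 and 7.33 in naive nodes (1.21, adjusted p = 0.0848). With place as a covariate the Tra2b difference was 0.46, and the lowest naive levels of both genes were those of numbers 47 and 48, the highest numbers of the set.

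NRF2 is the antioxidant regulator that fumarates are known to activate. Of 23 of its target genes, 4 were called higher and 1 lower, beside 6.14% and 8.40% of all genes, with a median of -0.04. Gclc, of glutathione synthesis, was higher by 0.44 (adjusted p = 0.0383) and Srxn1, sulfiredoxin, by 0.40 (adjusted p = 0.0201). Nqo1, the standard readout of the pathway, was at 5.81, 6.49, 6.67 and 6.24 in vehicle nodes, against 5.93, 6.54 and 6.83 in naive nodes, with no call (-0.20, adjusted p = 0.515). No NRF2 target was called without vehicle array 1. Among the clock genes, Per3 fell by 0.52 and Bhlhe40 rose by 0.28, and neither was called without vehicle array 1. H3c1, a histone gene, fell by 0.98 (adjusted p = 0.0255), with a difference of -0.60 without that array (adjusted p = 0.362). Of 36 gene lists examined, 8 had no called member, among them the neutrophil list with a median of -0.21.

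Few genes were shown to differ between inguinal and mesenteric nodes in how vehicle and naive compared. The interaction test called 35 genes, 0.205% of those tested, 27 with a higher and 8 with a lower difference in the inguinal node, and 21 of them were among the 2485 inguinal calls. Gbp2b differed by 2.13 in the inguinal and 0.16 in the mesenteric node, a gap of 1.96 (adjusted p = 0.012). Its mesenteric levels were 8.08 to 9.08 in vehicle and 7.74 to 8.94 in naive nodes. The organs may have been normalized apart, so levels were not compared between nodes. Ccl7 differed by 1.11 and 0.10, a gap of 1.01 (adjusted p = 0.0401), and Ucp1 by 0.41 and -0.02 (adjusted p = 0.0302). Mesenteric levels of Ccl7 were 2.81 to 3.36 in vehicle and 2.76 to 3.12 in naive nodes. Those of Ucp1 were 2.28 to 2.51 and 2.37 to 2.45. Both genes lay near the lowest mesenteric level, 2.19, where a difference could hardly show. With dim genes left out the test called 3 genes. Without vehicle array 1 the test called 11 genes, and Gbp2b (1.77, adjusted p = 0.10), Ccl7 (0.39, adjusted p = 0.556) and Ucp1 (0.33, adjusted p = 0.20) were not among them. Without vehicle 6, 7 or 8 it called 109, 160 and 110.

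The fumarate-dosed inguinal nodes at 12 h give the levels that dosed mice had. Hsph1 averaged 12.28 at 100 mg/kg DMF (n = 6), 11.99 at 179.2 mg/kg DMF (n = 6), 12.02 with MEF salts (n = 5) and 11.82 with DMF and MEF salts (n = 7), beside 12.27 in vehicle and 11.72 in naive nodes. Gbp2b averaged 5.94, 4.96, 6.34 and 6.03 in these dosed arms in the same order, beside 7.70 in vehicle and 5.58 in naive nodes. The mast cell gene Cpa3 averaged 6.71, 6.86, 6.72 and 6.07 in the dosed arms, beside 4.90 in vehicle and 6.44 in naive nodes. The vehicle group held the highest Gbp2b and the lowest Cpa3 mean of the 6 groups, whereas its Hsph1 mean was matched by 100 mg/kg DMF. These means are given as a description, since the comparisons would share the vehicle and naive arrays.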

How the data were processed

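Total RNA of whole inguinal nodes was amplified to biotin-labelled cRNA and hybridised to arrays, per the labels' protocols. The values used are the deposited log2 levels per probe set, whose lowest level in these nodes was 2.18. RMA, GCRMA, R 2.11.1 and limma 3.4.5 are named in the submitters' processing notes, without their roles, and the genome build is not given in the sources used here. Groups and numbers were read from the titles.

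Of 45141 probe sets, 28898 had 1 gene symbol. For each of 17097 genes the probe set with the highest mean was kept. Differences were tested with limma 3.58.1 (R 4.3.3, the package data.table at version 1.17.8) on the deposited log2 values, with 1 mean per group for 73 inguinal node arrays in 11 groups, and Benjamini-Hochberg adjustment over all genes at 0.05. Organs were fitted separately, except that the inguinal and mesenteric nodes were also fitted together for the test between them. The number of arrays limits the precision. On simulated data from this comparison, with 17097 genes and 50 changed at each fold, the test recovered 52% at 1.25-fold, 86% at 1.5-fold, 100% at 2-fold and 100% at 4-fold, and 7 of 176 calls were false. The simulation held far fewer changed genes than the 2485 called here, so its rates need not hold for these arrays.

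Named genes were, by rule, the 10 highest and 10 lowest called genes above the organ's median level, the 10 highest and 10 lowest called in each of the 4 vehicle leave-outs, up to 6 called and 3 other members of a list, and a few that earlier results single out. Predicted or unnamed genes and a few sex-linked genes were left out of these rankings. Parp14, Stat2, Irf1, Ifng, Kit and Hspa8 were added after their values were seen, as were the genes singled out for an array. The members and lists were chosen with earlier results of these data known. The alternatives changed the normalization, filter, spread, array weights, probe set rule and arrays used. Python 3.11.15, pandas 2.3.3 and matplotlib 3.10.9 served for the promoter matches and figures.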

Additional observations from a re-analysis of the deposited data

Results flagged for a closer look

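Among 88 genes of the text, 176 groups were screened for a sample far from the others, and 27 were picked out. The screen would pick about 1 in 20 groups by chance. That rate does not apply here, since the genes were chosen from the same values. Vehicle array 1 was the distant sample in 12 of the 27 and naive array 47 in 9.

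In the vehicle group, array 1 was far above the rest for Hsp90aa1 (10.29), Gbp2 (10.38), Irgm2 (11.37), Irf1 (11.67), Ifng (7.92), Gzmb (9.11), Klrk1 (8.27), Ptgs2 (7.06), Ccl3 (6.92), Ccl7 (7.26) and Rbm12b1 (8.28), and far below them for Pawr (8.36). Cirbp was set apart by vehicle array 7 (6.17).

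In the naive group, array 47 was far above the rest for Ifit1 (8.91), Ifit2 (8.70), Dhx58 (7.93), Oas2 (8.73), Oasl1 (8.10), Oas1g (9.03), Cmpk2 (6.99), Ifng (3.83) and Ucp1 (2.68). Naive array 41 was far above the rest for Plin4 (7.91) and Scd1 (13.10), naive array 42 for Pfdn2 (8.09) and naive array 43 for Chst4 (7.19), while Ptgs2 was lowest in naive array 43 (2.82).

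The vehicle minus naive difference was larger in the inguinal than in the mesenteric node for Gbp2b (by 1.96), Ccl7 (by 1.01) and Ucp1 (by 0.43), by the test of the difference itself (limma, adjusted p = 0.012, 0.0401 and 0.0302). None of the 3 was called without vehicle array 1. In the mesenteric node Ccl7 and Ucp1 lay near the lowest level of the arrays, where a difference could hardly show.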

How the results depend on the processing

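The 2485 calls became 303 with the spread of the 12 arrays alone, 864 with that of the 12 h arrays, 755 with array weights, 219 within places 5 to 8 and 318 without vehicle arrays 1 and 7. Leaving out 1 vehicle array gave 699 (without number 1) to 2907, and 1 naive array 2035 to 2655. Leaving out vehicle array 1 with place as a covariate, an alternative added after seeing the data, gave 871. The cause of these shifts was not tested. The other alternatives kept the count within 1.5 times. Of 75 called genes of the text, 38 lost their call without vehicle array 1, 60 with the spread of the 12 arrays alone and 67 within places 5 to 8, and none changed direction under any alternative. Centring every array moved the median of all genes by 0.098, to 0.092, and cost 5 of the 75 calls. Hspa8, not called on its main probe set, reversed to 0.18 when its probe sets were averaged. The 35 calls between inguinal and mesenteric node became 3 with dim genes left out, and 11 to 160 without 1 vehicle array (109 without number 6, 110 without number 8, 160 without number 7, 11 without number 1). No paired analysis was possible because vehicle and naive arrays of the inguinal node share no numbers. Between the nodes, equal numbers could be paired: a fit with the replicate block called 11 genes, without Gbp2b (adjusted p = 0.0675), Ccl7 (adjusted p = 0.0939) and Ucp1 (adjusted p = 0.0702). In the pairing check, 26 of 36 pairs correlated above 0.1, the lowest at -0.08, and 9 correlated best with their own number. The median was 0.17 for equal and -0.0069 for unequal numbers. Not every pair passed 0.1, so the numbers were not taken to pair the nodes. Levels near 2.18 limit what can be measured for dim genes.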
